A study of Mus musculus with 24 samples.

Results

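Histone variants that a cell makes outside DNA replication were followed across the brain regions, times and lighting schedules of a chronic jet lag (CJL) study in mice. The members are the 8 genes of the deposited expression tables whose symbols are H2afz, H2afv, H2afx, H2afj, H2afy, H2afy2, H3f3a and H3f3b, out of 48526 genes listed. The family was proposed after H2afz had been singled out in the prefrontal cortex (PFC) at ZT1, so the PFC values of CJL against Ctrl mice at ZT1, and of ZT13 against ZT1, are given as a description with no test.

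RNA was sequenced from PFC and nucleus accumbens (NAc), the ventral part of the striatum, of male C57BL/6J mice, obtained at 8 weeks of age and kept for 2 weeks on 12 h light and 12 h dark, with no transgene or drug. CJL mice had their light cycle advanced by 6 h every 2 days, and Ctrl mice stayed on the starting cycle. Tissue was taken on day 10 of the schedule at Zeitgeber time 13 (ZT13, 1 h after lights off) or ZT1 (1 h after lights on), which gave 8 groups of 3 libraries: NAc ZT13 CJL, NAc ZT13 Ctrl, NAc ZT1 CJL, NAc ZT1 Ctrl, and the same 4 groups of PFC. The 24 libraries came from 12 mice, each giving both regions, and the labels do not tie the NAc and PFC libraries of a mouse to each other.

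A nucleosome wraps DNA around 2 copies each of H2A, H2B, H3 and H4. The replication-dependent histone genes are expressed with DNA synthesis and most of their mRNAs end in a stem-loop without a poly(A) tail. Most replacement variants are instead made throughout the cell cycle from polyadenylated mRNAs. In neurons, which no longer divide, these variants supply new histones. H2A.Z marks promoters and is known to be exchanged in neurons during memory formation, macroH2A carries a large domain at its end and is associated with silent chromatin, H2A.X is phosphorylated at DNA breaks, and H3.3 replaces H3 in active chromatin and accumulates in neurons with age.

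The genes lie apart in the mm10 genome, and the spans in the files were those of GENCODE M21. H2afz lies on chromosome 3 from 137864487 to 137866922, H2afv on chromosome 11 from 6427229 to 6444443, and H2afy and H2afy2 on chromosomes 13 and 10. H2afx lies on chromosome 9, H2afj on chromosome 6, H3f3a on chromosome 1 from 180800832 to 180813943, and H3f3b on chromosome 11 from 116021912 to 116027962. RefSeq promoters (GRCm38.p6) were matched for 7 of the 8 genes. The 250 bases before the start of 5 of them are shown, because H2afz, H2afj and H3f3a are the genes with the widest separation of lighting groups in PFC at ZT1 and H2afv and H3f3b are the second gene for the same kind of histone. They are read 5′ to 3′ on the gene's strand, and capitals mark matches on either strand. The motifs searched were the E-box, with the letters CACGTG, the box named CCAAT, which reads ATTGG on the other strand, the TATA box, with the letters TATAAA, the cAMP response element, with the letters TGACGTCA, and the GC box, with the letters GGGCGG, which reads CCGCCC on the other strand. Starts are those of RefSeq, and for H2afj, H3f3a and H3f3b they lie inside the span in the files.
H2afz, RefSeq H2az1, chr3:137864237-137864486, plus strand: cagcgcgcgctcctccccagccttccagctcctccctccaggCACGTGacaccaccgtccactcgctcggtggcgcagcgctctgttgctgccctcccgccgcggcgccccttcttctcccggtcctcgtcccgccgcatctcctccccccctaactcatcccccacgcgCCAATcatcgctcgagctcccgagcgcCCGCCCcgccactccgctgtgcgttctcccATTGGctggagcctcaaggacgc
H2afv, RefSeq H2az2, chr11:6444444-6444693, minus strand: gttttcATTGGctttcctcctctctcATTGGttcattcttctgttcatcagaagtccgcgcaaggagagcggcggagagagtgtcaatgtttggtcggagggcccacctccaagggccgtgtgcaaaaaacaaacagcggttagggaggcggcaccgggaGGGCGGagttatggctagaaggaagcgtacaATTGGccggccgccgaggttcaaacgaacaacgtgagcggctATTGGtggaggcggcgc
H2afj, RefSeq H2aj, chr6:136807998-136808247, plus strand: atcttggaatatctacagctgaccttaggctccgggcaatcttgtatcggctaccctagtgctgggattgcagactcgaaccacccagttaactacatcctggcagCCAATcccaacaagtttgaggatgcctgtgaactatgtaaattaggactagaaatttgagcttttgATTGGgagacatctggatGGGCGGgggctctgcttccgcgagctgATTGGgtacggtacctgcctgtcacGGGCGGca
H3f3a, RefSeq H3f3a, chr1:180813606-180813855, minus strand: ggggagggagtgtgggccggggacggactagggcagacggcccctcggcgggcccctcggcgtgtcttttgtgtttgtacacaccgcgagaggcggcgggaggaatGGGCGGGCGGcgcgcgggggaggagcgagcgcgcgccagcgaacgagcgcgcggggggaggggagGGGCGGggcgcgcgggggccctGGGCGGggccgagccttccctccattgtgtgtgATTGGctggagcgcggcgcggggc
H3f3b, RefSeq H3f3b, chr11:116024505-116024754, minus strand: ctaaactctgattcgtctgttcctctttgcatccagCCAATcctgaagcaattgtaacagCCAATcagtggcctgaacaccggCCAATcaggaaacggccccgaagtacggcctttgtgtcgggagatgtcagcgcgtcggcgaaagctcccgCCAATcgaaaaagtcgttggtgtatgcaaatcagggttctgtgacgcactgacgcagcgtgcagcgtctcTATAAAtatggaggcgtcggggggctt
Of the 7 promoters, 5 held a CCAAT box and 5 a GC box, against 33.8% and 32.7% of 32851 RefSeq promoters of that length. H2afv and H3f3b held 4 CCAAT boxes each and H2afz held 2. The E-box was found in H2afz, 208 bases before the start, where 6.02% of all promoters hold one, and the TATA box in H3f3b, 27 bases before the start, where 12.4% hold one. H3f3a held 4 GC boxes, of which the first 2 overlap. The cAMP response element was in none of the 7, against 1.55% of all promoters. A match is a run of letters, and no binding was measured.

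All 8 genes passed the filter of an FPKM (reads scaled to the length of the gene's exons and to the size of the library) of at least 1 in at least 3 libraries, in both regions. H2afz and H3f3b were the most abundant members. H3f3b averaged 69.5 ± 8.50 FPKM in NAc and 56.0 ± 9.82 FPKM in PFC (SD, n = 12 each), and H2afz averaged 58.4 ± 8.68 FPKM in NAc and 69.6 ± 15.2 FPKM in PFC. H3f3b exceeded H2afz in 10 of 12 NAc libraries and H2afz exceeded H3f3b in 9 of 12 PFC libraries, so the order of these neighbours varied between libraries. H2afy, which encodes macroH2A1, averaged 44.4 FPKM in NAc and 34.7 FPKM in PFC, next to H3f3a with 42.9 and 40.6 FPKM. H2afx had 22.2 FPKM in NAc and 20.1 FPKM in PFC, H2afv had 19.5 and 15.9 FPKM, and H2afj had 11.8 and 16.6 FPKM. H2afy2, which encodes macroH2A2, was the lowest member, with 9.73 FPKM in NAc and 9.66 FPKM in PFC. In PFC the neighbours H2afj and H2afv kept their order in 8 of 12 libraries, and in NAc H2afy and H3f3a in 8 of 12. Reads of H3f3a can be shared with H3f3a-ps1, H3f3a-ps2 and H3f3c, whose rows reached at most 2.72 FPKM, and with H3f3aos, which overlaps it on the other strand, since the strand setting of the counting is not given in the sources used here. H2afy2 overlaps Aifm2 in the same way, and the splice forms of H2afy are not separated.

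**Figure D1:**
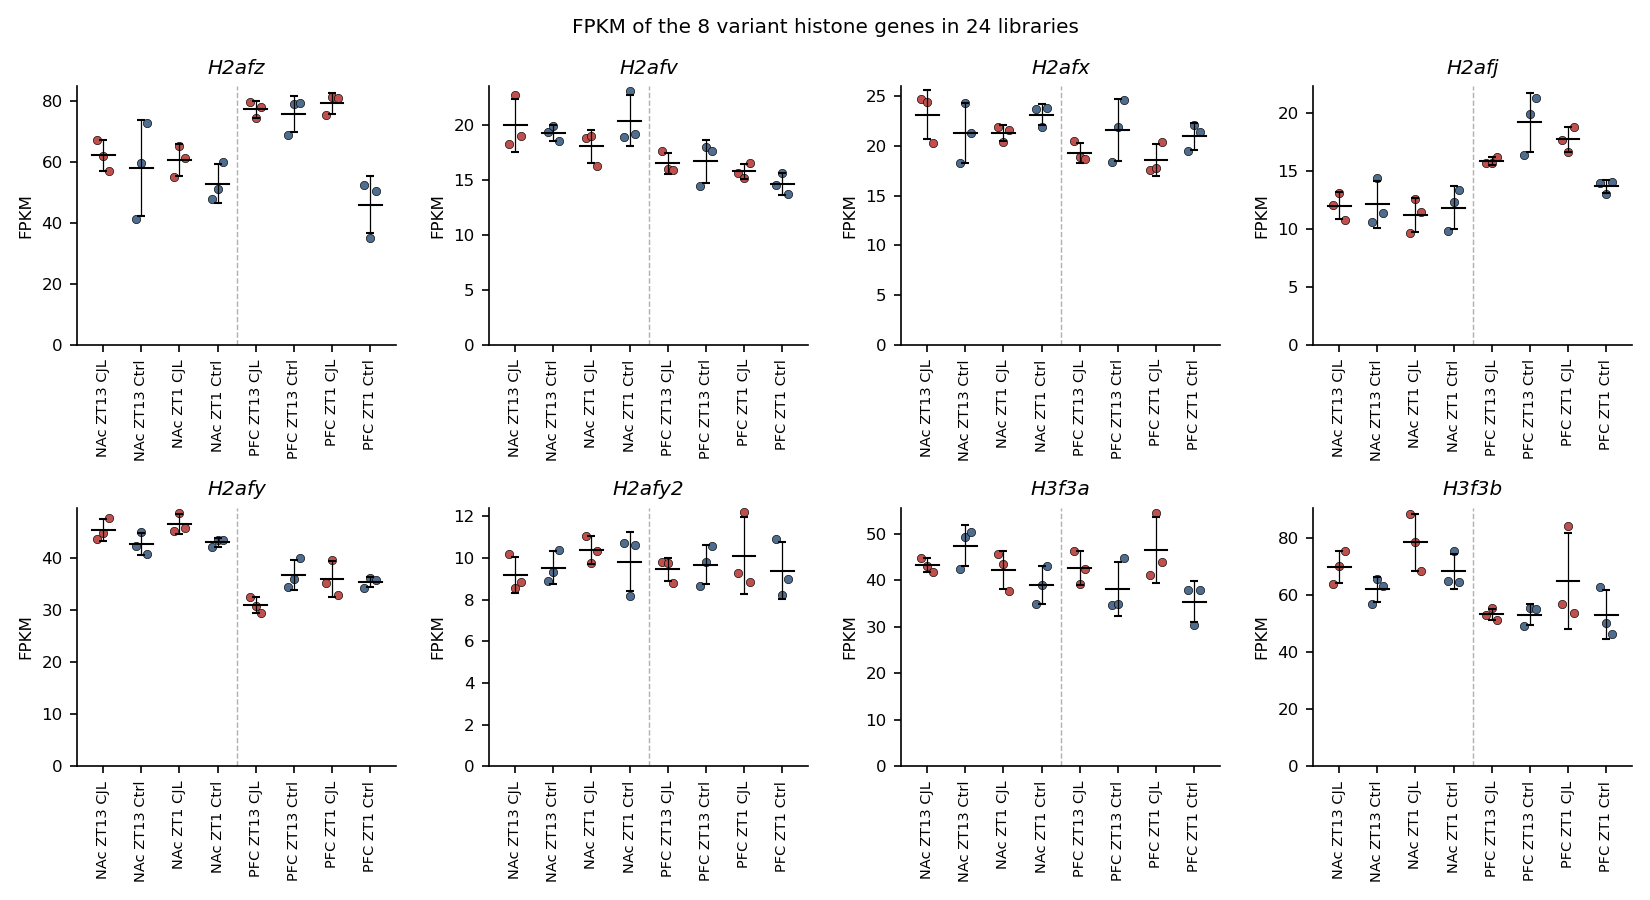
FPKM of each member in 24 libraries, with 3 points per group (CJL red, Ctrl blue), the group mean as a horizontal bar and the SD as a vertical bar, and NAc left of PFC. The 3 PFC ZT1 Ctrl libraries hold 35.1 to 52.4 FPKM of H2afz, below every other PFC library, and H2afy is at least 40.8 FPKM in every NAc library and at most 40.0 FPKM in every PFC library.

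Some libraries stood apart for the series as a whole. The PFC ZT1 Ctrl libraries had 15.5% to 21.3% of their summed FPKM in genes of the mitochondrial genome, against 13.6% to 14.6% in the other 9 PFC libraries. Without the mitochondrial gene mt-Atp6 these shares were 14.5% to 19.8%, against 13.4% to 14.4%. In the study's sequencing statistics, every PFC ZT1 Ctrl library also had a lower clean read rate and lower GC content than the other 9 PFC libraries. Each also had a higher share of high-quality bases. Markers of neighbouring tissue were high, by a mean log2 level more than 1.5 above the region's median, in 7 libraries: olfactory bulb markers in PFC ZT1 CJL replicate 2 (167 FPKM summed over 7 genes) and PFC ZT1 Ctrl replicate 1 (63.0 FPKM), and choroid plexus or thalamus and hypothalamus markers in PFC ZT13 CJL replicate 1, PFC ZT13 Ctrl replicate 1, NAc ZT13 CJL replicate 3, NAc ZT13 Ctrl replicate 3 and NAc ZT1 CJL replicate 2. A NAc ZT1 CJL library under that limit still held 403 FPKM of thalamus and hypothalamus markers. NAc ZT1 CJL libraries held 70.8 to 403 FPKM of them, and NAc ZT1 Ctrl libraries 17.2 to 69.6 FPKM. Ependymal markers summed to 29.1 to 41.9 and 9.95 to 21.8 FPKM there, and striatal neuron markers to 286 to 634 and 554 to 699 FPKM. The part of these differences in the NAc lighting values was not tested. The region labels fitted their markers, with 286 to 784 FPKM of 6 striatal neuron genes in NAc and 91.5 to 175 FPKM in PFC. The 5 cortical projection neuron genes summed to 29.6 to 176 FPKM in NAc and 353 to 579 FPKM in PFC. No library repeated another, since the highest correlation between 2 libraries was 0.985.

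H2afz showed its widest difference between lighting groups in PFC at ZT1. It had 75.4, 81.4 and 80.9 FPKM in PFC ZT1 CJL libraries, against 52.4, 35.1 and 50.3 FPKM in PFC ZT1 Ctrl libraries. The groups did not overlap, and the difference was 0.81 (SE 0.126) on the log2(FPKM + 0.1) scale, or 1.75-fold. In bulk tissue, fewer cells of a type and less RNA per cell cannot be told apart. At ZT13 the groups overlapped, with 79.8, 74.3 and 77.9 FPKM in PFC ZT13 CJL libraries, against 68.8, 79.0 and 79.5 FPKM in PFC ZT13 Ctrl libraries. There the difference was 0.03, with a 95% interval of -0.24 to 0.31 (limma, adjusted p = 0.934). The PFC ZT1 Ctrl group was therefore the low group, and it also set the difference between times: ZT13 minus ZT1 was 0.74 in Ctrl mice and -0.03 in CJL mice. The comparison of lighting at ZT1 and that of time in Ctrl mice share these 3 libraries. Since these libraries also stood apart in mitochondrial share and sequencing statistics, lighting or time cannot be told apart from library quality here.

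The low H2afz values stood in libraries with high mitochondrial shares. PFC ZT1 Ctrl replicate 2 had 35.1 FPKM of H2afz and a mitochondrial share of 21.3%, and in NAc the 2 lowest libraries, ZT13 Ctrl replicate 1 with 41.4 FPKM and ZT1 Ctrl replicate 1 with 47.8 FPKM, had shares of 18.1% and 19.5%, against 14.3% to 16.8% in the other 10 NAc libraries. Without mt-Atp6 the gaps narrowed. The shares were then 19.8% in PFC ZT1 Ctrl replicate 2, 16.8% in NAc ZT13 Ctrl replicate 1 and 18.2% in NAc ZT1 Ctrl replicate 1. The other 10 NAc libraries then had 14.1% to 16.6%. The part of the mitochondrial share in the H2afz difference was not tested. Without the libraries high in neighbouring tissue markers, the PFC ZT1 difference of H2afz was 0.89. Leaving out PFC ZT1 Ctrl replicate 2 gave 0.62, and a correction for GC content and exon length gave 0.64.

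H2afj, an H2A variant close in sequence to the replication-dependent form, and H3f3a, a gene for H3.3, also did not overlap between the lighting groups of PFC at ZT1. H2afj had 17.7, 16.6 and 18.8 FPKM in PFC ZT1 CJL libraries, against 13.9, 13.0 and 14.0 FPKM in PFC ZT1 Ctrl libraries, a difference of 0.37 (SE 0.0913), or 0.22 with the correction for GC content and exon length. H3f3a had 41.1, 54.4 and 44.0 FPKM in PFC ZT1 CJL libraries, against 37.9, 30.3 and 37.9 FPKM in PFC ZT1 Ctrl libraries, a difference of 0.39 (SE 0.134). The H3f3a value of 54.4 FPKM came from the library with the highest olfactory bulb markers, and without that library the difference was 0.27. With H2afz, 3 of 8 members lay higher in CJL without overlap, as did 17.0% of the 14914 genes in this comparison, and 0 lay lower, as did 10.4%. Since this contrast led to the family, nothing is read from the count.

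The other 5 members overlapped between the lighting groups of PFC at ZT1. H3f3b, the second gene for H3.3, had 56.9, 84.2 and 53.5 FPKM in PFC ZT1 CJL libraries, against 62.7, 50.0 and 46.4 FPKM in PFC ZT1 Ctrl libraries. Its difference of 0.27 (SE 0.154) became 0.07 without PFC ZT1 CJL replicate 2, the library with high olfactory bulb markers. H2afv, the second H2A.Z gene, had 15.6, 15.2 and 16.6 FPKM in PFC ZT1 CJL libraries, against 14.5, 15.7 and 13.8 FPKM in PFC ZT1 Ctrl libraries, a difference of 0.11 (SE 0.0916), which turned to -0.04 with the correction for GC content and exon length. H2afx lay at -0.18 (SE 0.104), H2afy2 at 0.10 (SE 0.136) and H2afy at 0.02 (SE 0.0814).

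Between times in PFC, H2afz and H2afj lay higher at ZT13 than at ZT1 in Ctrl mice without overlap. H2afj had 16.4, 19.9 and 21.2 FPKM in PFC ZT13 Ctrl libraries, against 13.9, 13.0 and 14.0 FPKM in PFC ZT1 Ctrl libraries, a difference of 0.48 (SE 0.0913), or 0.27 with the correction for GC content and exon length. These are 2 of 8 members, and 21.9% of all genes tested lay higher at ZT13 without overlap in that comparison. In CJL mice H2afj had 15.7, 15.6 and 16.2 FPKM at ZT13, against 17.7, 16.6 and 18.8 FPKM at ZT1, a difference of -0.16 (SE 0.0913). H2afy had 32.5, 30.8 and 29.4 FPKM in PFC ZT13 CJL libraries, against 35.2, 39.7 and 32.8 FPKM in PFC ZT1 CJL libraries, a difference of -0.21 (SE 0.0814). Both lay lower at ZT13 in CJL mice without overlap, as did 7.20% of all genes. The effect of CJL at ZT13 minus that at ZT1 was -0.77 (SE 0.178) for H2afz, -0.64 (SE 0.129) for H2afj and -0.26 (SE 0.115) for H2afy, and lay between -0.27 and 0.02 for the other 5 members. The correction for GC content and exon length raised it above 0.02 for H2afv and H2afx.

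At ZT13 in PFC, CJL against Ctrl was tested, and 0 of 8 members passed an adjusted p of 0.05 (limma with Benjamini-Hochberg adjustment over 14914 genes), where 0.0201% of all genes passed, or 3 genes. At an unadjusted p under 0.05, 2 members and 12.6% of all genes passed. These were H2afy and H2afj, chosen by their values. H2afy had 32.5, 30.8 and 29.4 FPKM in PFC ZT13 CJL libraries, against 34.3, 35.9 and 40.0 FPKM in PFC ZT13 Ctrl libraries, and its difference of -0.25 (SE 0.0814) had an adjusted p of 0.313. H2afj had 15.7, 15.6 and 16.2 FPKM, against 16.4, 19.9 and 21.2 FPKM, and its difference of -0.27 (SE 0.0913) had an adjusted p of 0.319. Without PFC ZT13 Ctrl replicate 1, a library with high choroid plexus markers, the H2afj difference was -0.37 with an adjusted p of 0.0390. The share of all genes called without that library is not given here. The PFC ZT13 Ctrl libraries that were kept still held 22.0 and 102 FPKM of these markers, against a PFC median of 5.88 FPKM. PFC ZT13 CJL replicate 1, also kept, held 702 FPKM. Without all libraries high in neighbouring tissue markers, the H2afj difference was -0.37 and was not called (limma, adjusted p = 0.0946), where 50 genes passed. Both genes lay lower in CJL without overlap, as did 9.97% of all genes. H3f3a lay at 0.17 (adjusted p = 0.614), H2afx at -0.15 (adjusted p = 0.545), and the other 4 members between -0.03 and 0.03.

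**Figure D2:**
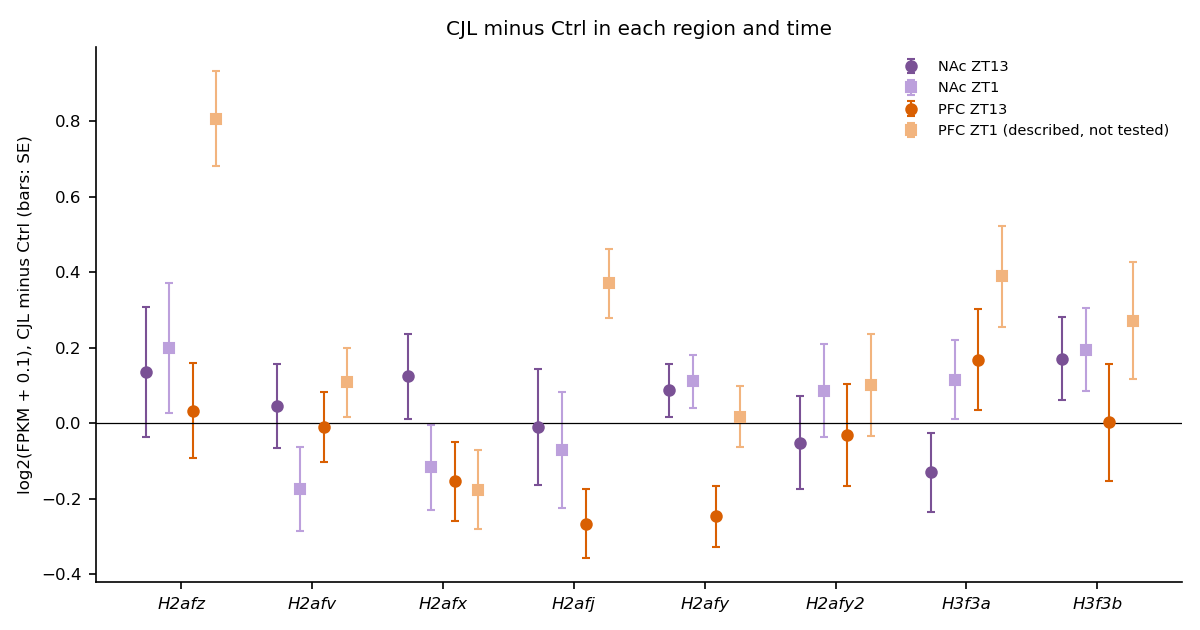
CJL minus Ctrl of each member on the log2(FPKM + 0.1) scale, with the SE as bars, for NAc at ZT13 and ZT1 and PFC at ZT13 and ZT1. H2afz stands at 0.81 in PFC at ZT1 and between 0.03 and 0.20 in the other comparisons, and H2afj stands at -0.27 in PFC at ZT13 and at 0.37 in PFC at ZT1.

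In NAc no member passed the test for lighting or time. H2afz had 55.2, 65.4 and 61.5 FPKM in NAc ZT1 CJL libraries, against 47.8, 51.0 and 60.0 FPKM in NAc ZT1 Ctrl libraries. The groups overlapped, and the difference was 0.20, with a 95% interval of -0.18 to 0.58 (limma, adjusted p = 0.797). At ZT13 H2afz had 67.4, 62.0 and 57.2 FPKM in NAc ZT13 CJL libraries, against 41.4, 59.6 and 72.7 FPKM in NAc ZT13 Ctrl libraries. That difference was 0.14, with a 95% interval of -0.24 to 0.51 (adjusted p = 0.840), and the Ctrl libraries spread over the whole range of the CJL libraries. Between ZT13 and ZT1, H2afz differed by 0.10 in NAc of Ctrl mice (adjusted p = 0.884) and by 0.04 in NAc of CJL mice (adjusted p = 0.992). The effect of CJL on H2afz at ZT13 minus that at ZT1 was -0.06 in NAc, with a 95% interval of -0.60 to 0.47. These intervals are wide and do not show that the groups are alike. The value of 72.7 FPKM came from NAc ZT13 Ctrl replicate 3, which held 1215 FPKM of choroid plexus markers. Without the libraries high in neighbouring tissue markers, the H2afz lighting difference was 0.38 at ZT13 and 0.14 at ZT1. Time then gave -0.08 in Ctrl and 0.15 in CJL mice, and the difference of effects was 0.23 (limma, adjusted p of at least 0.949 in each).

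The 4 comparisons in NAc and their interaction called 0 of 8 members and 0 of 15573 genes with limma, that is 0% of the background. At an unadjusted p under 0.05, the share of all genes was 7.71% for lighting at ZT1, 8.32% for lighting at ZT13, 10.1% for time in Ctrl mice, 5.21% for time in CJL mice and 6.47% for the interaction. A single member was under that threshold in them. H3f3a had 42.3, 49.3 and 50.5 FPKM in NAc ZT13 Ctrl libraries, against 34.9, 38.9 and 43.1 FPKM in NAc ZT1 Ctrl libraries. Its difference of 0.28 (SE 0.105) had an adjusted p of 0.395, and the groups overlapped at their edge. H2afy had 45.1, 48.7 and 45.7 FPKM in NAc ZT1 CJL libraries, against 42.0, 43.5 and 43.5 FPKM in NAc ZT1 Ctrl libraries. It was the member whose lighting groups did not overlap in NAc, with a difference of 0.11 (adjusted p = 0.731), and 9.52% of all genes lay higher there without overlap. In either direction, 14.0% of all genes did not overlap between lighting groups in NAc at ZT1 and 12.9% at ZT13. H3f3b lay at 0.20 at ZT1 and 0.17 at ZT13 for CJL against Ctrl (adjusted p = 0.691 and 0.685).

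Whether CJL acted differently in NAc and PFC was tested at ZT13 alone. Of all 16072 genes, 0 passed, and 12.6% had an unadjusted p under 0.05. H2afy was the member under that threshold. Its CJL effect was 0.09 in NAc and -0.25 in PFC, and the difference of 0.33 (SE 0.103) had an adjusted p of 0.243 (limma). For H2afz the difference of effects was 0.10, with a 95% interval of -0.36 to 0.57.

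In NAc against PFC, over all times and lighting schedules, 6 of 8 members passed an adjusted p of 0.05, as did 65.8% of all 16072 genes, so the share is near the background. Higher in NAc were 4 members, against 44.0% of all genes, and lower were 2, against 21.7%. The test treats the regions of a mouse as independent libraries. In the study's sequencing statistics, every NAc library had a lower mapping rate and a lower share of high-quality bases than every PFC library. Tissue and sequencing quality therefore cannot be told apart in the region differences. The median difference of all genes was 0.12 on the log2 scale, and scaling by the median of ratios lowered the members' differences by about that amount.

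H2afy, the macroH2A1 gene, was higher in NAc, where its level was 40.8 to 48.7 FPKM, with a median of 44.3, against 29.4 to 40.0 FPKM in PFC, with a median of 34.8. The 12 NAc and 12 PFC libraries did not overlap, as was true of 8.97% of all genes in this direction. The difference was 0.36 (SE 0.0365; limma, adjusted p = 4.58e-08), or 0.23 relative to the median of all genes. It ranged over the 4 conditions between 0.22 in ZT13 Ctrl mice and 0.55 in ZT13 CJL mice. H2afy2, the macroH2A2 gene, differed by 0.01, with a 95% interval of -0.13 to 0.15 (adjusted p = 0.874), and its direction turned with both other scalings, to -0.10 and -0.11. Of the summed FPKM of the macroH2A genes, H2afy2 made up 18.0% ± 1.77 in NAc and 21.8% ± 1.79 in PFC (SD, n = 12 each).

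H3f3b was higher in NAc, with 56.9 to 88.3 FPKM and a median of 66.9, against 46.4 to 84.2 FPKM in PFC, with a median of 54.3. The difference was 0.32 (SE 0.0701; limma, adjusted p = 0.000509), or 0.20 relative to the median of all genes, and the regions overlapped. A correction for GC content and exon length lowered it to 0.13 (adjusted p = 0.0717), which ended the call. H3f3a, which encodes the same H3.3 protein, differed by 0.09, with a 95% interval of -0.04 to 0.22 (adjusted p = 0.220), and its direction turned with that correction, to -0.10 (adjusted p = 0.172), and with scaling by the median of ratios, to -0.03. H3f3a made up 38.3% ± 3.78 of the summed FPKM of the H3.3 genes in NAc and 42.1% ± 3.24 in PFC.

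The H2A.Z genes went in opposite directions. H2afz was lower in NAc, with 41.4 to 72.7 FPKM and a median of 59.8, against 35.1 to 81.4 FPKM in PFC, with a median of 76.7. The difference was -0.23 (SE 0.0794; limma, adjusted p = 0.0169), or -0.35 relative to the median of all genes. Within conditions it was -0.32 in ZT13 CJL, -0.42 in ZT13 Ctrl and -0.39 in ZT1 CJL mice, but 0.22 in ZT1 Ctrl mice, the condition with the low PFC libraries. Without the ZT1 Ctrl groups of both regions, an alternative added after the values were seen, the H2afz difference was -0.38. That alternative leaves out the condition of opposite sign, so a larger H2afz difference followed from the choice and no test is read from it. H2afv was higher in NAc, with 16.3 to 23.1 FPKM and a median of 19.0, against 13.8 to 18.0 FPKM in PFC, with a median of 15.8. Its difference was 0.29 (SE 0.0510; limma, adjusted p = 5.64e-05) and was positive in all 4 conditions, between 0.19 and 0.47. Scaling by the median of ratios lowered it to 0.17 and the correction for GC content and exon length to 0.14, and the call was kept under both.

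H2afj was lower in NAc, with 9.65 to 14.4 FPKM and a median of 11.7, against 13.0 to 21.2 FPKM in PFC, with a median of 16.3. The difference was -0.49 (SE 0.0647; limma, adjusted p = 1.60e-06), or -0.61 relative to the median of all genes, and it was negative in all 4 conditions, between -0.66 and -0.22. H2afx was higher in NAc, with a median of 21.9 FPKM, against 19.9 FPKM in PFC, a difference of 0.14 (SE 0.0548; limma, adjusted p = 0.0272). Relative to the median of all genes this was 0.02, and its call was lost with scaling by the median of ratios (0.03, adjusted p = 0.690), with quantile normalization (0.10, adjusted p = 0.115) and without the libraries high in neighbouring tissue markers (0.13, adjusted p = 0.0678). It was also lost without the ZT1 Ctrl groups of both regions (0.14, adjusted p = 0.0806) and without any of 4 single libraries: PFC ZT1 Ctrl replicate 1 (adjusted p = 0.0518), PFC ZT13 Ctrl replicate 1 (0.0563), NAc ZT13 CJL replicate 1 (0.0509) or NAc ZT13 Ctrl replicate 2 (0.0570).

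**Figure D3:**
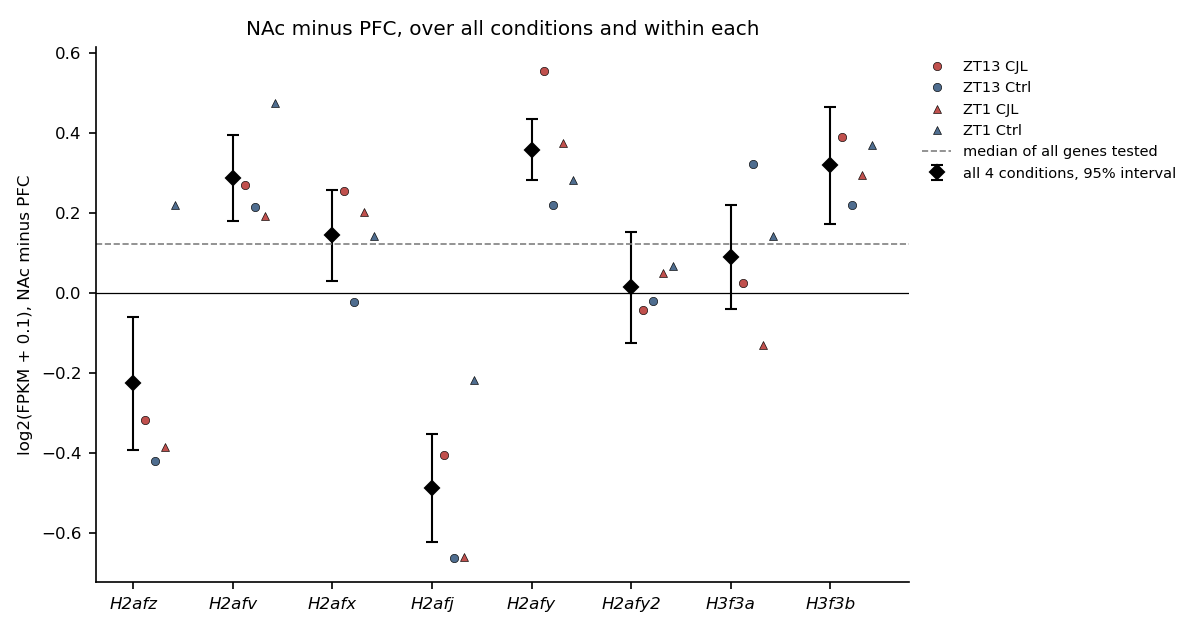
NAc minus PFC of each member on the log2(FPKM + 0.1) scale. Diamonds give the fit over all 4 conditions with its 95% interval, circles and triangles the difference within ZT13 and ZT1 (CJL red, Ctrl blue), and the dashed line the median of all genes, 0.12. H2afy stands at 0.36 and H2afj at -0.49, and H2afz lies below 0 in every condition but ZT1 Ctrl.

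The ratio of the 2 genes for the same kind of histone is free of scaling between libraries, and all 3 ratios differed between regions. A ratio is not free of the sequencing quality differences between regions, which cannot be told apart from tissue. The log2 ratio of H2afv to H2afz was -1.57 ± 0.287 in NAc and -2.08 ± 0.336 in PFC (SD, n = 12 each), a difference of 0.51 (two-sided permutation test, p = 0.0008, adjusted over the 3 pairs p = 0.0012). H2afv made up 25.3% ± 3.80 of the summed FPKM of the H2A.Z genes in NAc and 19.2% ± 4.07 in PFC. Within PFC its mean share was 17.6% in ZT13 CJL, 18.0% in ZT13 Ctrl, 16.6% in ZT1 CJL and 24.7% in ZT1 Ctrl libraries, so the last group lay near the NAc level. The log2 ratio of H2afy2 to H2afy was lower in NAc by 0.34 (difference -0.34, permutation p = 0.0001, adjusted p = 0.0003), and 7 of 12 NAc libraries lay below all PFC libraries. For H3f3a to H3f3b the difference was -0.23 (permutation p = 0.0164, adjusted p = 0.0164). The permutations treated the regions of a mouse as independent libraries and shuffled libraries without regard to lighting or time.

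**Figure D4:**
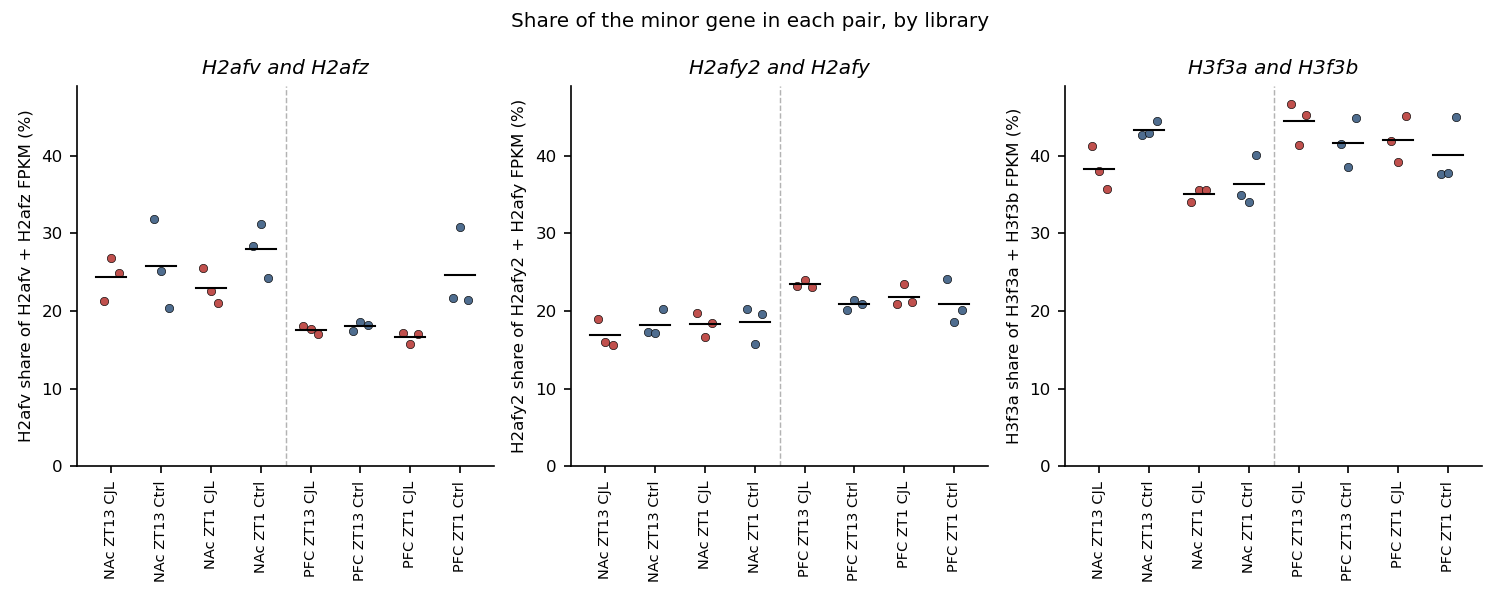
Share of the less abundant gene in the summed FPKM of each pair, in percent, by library (3 points per group, CJL red, Ctrl blue, bar at the mean), NAc left of PFC. H2afv averages 25.3% of the H2A.Z genes in NAc and 19.2% in PFC, where the ZT1 Ctrl libraries average 24.7%.

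The genes that place, remove or read these variants gave no call for lighting or time in the tested comparisons, and their calls were between regions. Of all genes, 0 of 15573 passed in each test within NAc and 3 of 14914 in PFC at ZT13. Nothing is therefore read from the absence of calls in the lists. In CJL against Ctrl at ZT13 in PFC and in the 5 tests within NAc, 0 genes passed in each of 7 lists: H2A.Z exchange (22 of 22 genes measured above the filter), H3.3 deposition (10 of 11), general histone chaperones (14 of 15), H2A.X signalling (10 of 10), other replication-independent histones (3 of 11), replication-dependent histones (13 of 68 in PFC and 15 in NAc) and proliferation (2 of 8 in PFC and 4 in NAc). In PFC at ZT1, given with no test, CJL minus Ctrl was positive for 14 of 22 H2A.Z exchange genes, with a median of 0.06, and for 2 of 10 H3.3 deposition genes, with a median of -0.18. Of all 14914 genes there, 8629 were positive, with a median of 0.04. The replication-dependent histones had a median of -0.12, with 5 of 13 positive, and the other replication-independent histones were positive in 3 of 3, among them the linker histone H1f0 at 0.47 (SE 0.0756).

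In NAc against PFC, 14 of 22 H2A.Z exchange genes were called higher and 1 lower, with a median of 0.20, against 44.0% and 21.7% of all genes and a median of 0.12. Brd8 (0.44) and Meaf6 (0.35), subunits of the NuA4/TIP60 complex, and Epc1 (0.33), a scaffold of the same complex, had the smallest p. The gene that was lower, named after its value was seen, was Anp32e (-0.71), a chaperone known to remove H2A.Z. Of 10 H3.3 deposition genes, 6 were higher, led by Ubn2 (0.66), Chd1 (0.52) and Dek (0.73). The 2 lower ones, named after their values were seen, were Hira (-0.26), a chaperone of H3.3, and Ubn1 (-0.19), which like Ubn2 encodes a ubinuclein of the HIRA complex.

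Among all genes 44.0% were called higher in NAc and 21.7% lower, and the counts of the other lists stand against these shares. Of 14 general chaperones, 11 were higher in NAc and 0 lower, led by Nap1l5 (1.35), Npm1 (0.95) and Nap1l3 (0.63). Of 10 H2A.X signalling genes, 7 were higher and 0 lower, led by Trp53bp1 (0.79), Prkdc (0.94) and Atr (0.76), which encode a DNA break mediator and kinases that phosphorylate H2A.X or its partners. Of 17 replication-dependent histones above the filter, 9 were higher and 0 lower, led by Hist1h2be (0.63), Hist1h4k (0.94) and Hist1h2ac (0.89), and mRNAs without a poly(A) tail are poorly captured by this library type. Of 4 proliferation genes, Ccna2 (0.52) and Top2a (1.04) were higher. H1f0 (-0.32) was the single call among 3 other replication-independent histones. The regions also differ in cell makeup: the 5 oligodendrocyte markers summed to 932 to 2310 FPKM in NAc and 742 to 1148 FPKM in PFC, and the 5 neuron markers to 1114 to 1374 FPKM in NAc and 1829 to 2116 FPKM in PFC. Their part in the region differences was not tested.

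Across the 24 libraries, with each region's mean subtracted, H2afz correlated with H2afj (Pearson r = 0.66) and H3f3a (0.64) and less with its paralog H2afv (0.21). H3f3a and H3f3b correlated at 0.40 and H2afy and H2afy2 at 0.25. Among 14542 genes, those most like H2afz were Scamp5 (r = 0.93), a synaptic vesicle protein, Pfdn6 (0.91), a prefoldin subunit, and Ormdl3 (0.91), a regulator of sphingolipid synthesis. Those most like H2afj were Guk1 (0.87), Ndufb8 (0.87) and Tmed9 (0.84). For H3f3a they were Atxn7l3b (0.81), Fam168b (0.79) and Ptn (0.78), and for H3f3b Cct3 (0.87), Zcchc12 (0.85) and Dbi (0.82). For H2afv they were Arpc1a (0.82), Rpl4 (0.80) and Ldhb (0.76), and for H2afy Baiap3 (0.80), Gap43 (0.74) and Caly (0.73). For H2afx they were Prrt1 (0.85), Fbxl15 (0.84) and Tomm40 (0.79), and for H2afy2 Cd320 (0.78), Psme2b (0.74) and Ppil1 (0.73). These are descriptions over libraries that share their dissection and, in PFC, the ZT1 Ctrl group.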

How the data were processed

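Poly(A) RNA of PFC and NAc from 12 mice was sequenced as 24 libraries. Per the labels and methods, the authors aligned the reads to mm10 with HISAT2, and their processing notes also name StringTie and FastQC 0.11.9. The authors deposited FPKM of 48526 Ensembl genes per library, scaled for depth and length. The files hold no counts, and the numbers of reads that the study lists per library were not used here, so no counting error is given and precision is the spread between libraries. The authors also deposited 8 tables of their own fold changes and p-values, which were not used.

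Values were taken to log2 after adding 0.1, and a gene entered a fit where 3 or more of its libraries reached 1 FPKM (14914 genes in PFC, 15573 in NAc and 16072 in both). The tool was limma 3.58.1 (R 4.3.3; empirical Bayes with a trend), on 12 libraries per region or all 24 between regions, with two-sided tests and Benjamini-Hochberg adjustment over all genes. Ratios of 2 genes were compared between regions with two-sided permutation tests of 100000 resamples in scipy 1.17.1. The fits were tested on simulated data. Replicates are separate mice. The members and gene lists were chosen with earlier results of these data known. All 8 members are named, with the 3 genes most correlated with each and, of each list, the called genes with the smallest p, at most 3; further genes named from a list were chosen after their values were seen. Alternatives covered the pseudocount, the filter, 2 scalings, GC content and exon length, the groups in a fit, the replicate number, the libraries high in neighbouring tissue markers, and each library in turn. Promoters are RefSeq sequences of GRCm38.p6. The 8 genes were matched by symbol and Ensembl ID.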

Additional observations from a re-analysis of the deposited data

Results flagged for a closer look

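The H2afj values of CJL mice in PFC lay on opposite sides of Ctrl at the 2 times. Every PFC ZT13 CJL library lay below every PFC ZT13 Ctrl library, and every PFC ZT1 CJL library lay above every PFC ZT1 Ctrl library. At ZT13 the nearest libraries had 16.2 FPKM in CJL and 16.4 FPKM in Ctrl, and the difference was not called (limma, adjusted p = 0.319). The share of all genes with such opposite separations is not given here. The effect of CJL at ZT13 minus that at ZT1 was -0.64 (SE 0.129) on the log2(FPKM + 0.1) scale. This difference of effects was not tested, because the comparison at ZT1 led to the choice of the family. With a correction for GC content and exon length it was -0.41.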

How the results depend on the processing

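The count of members past the adjusted threshold stayed at 0 for every NAc comparison of lighting, time and their interaction and for the difference of CJL effects at ZT13 under all alternatives run, and for CJL against Ctrl in PFC at ZT13 it was 0 to 1 when single libraries were left out, with the 1 (H2afj) without PFC ZT13 Ctrl replicate 1, and 0 under the other alternatives. For NAc against PFC it was 5 to 6 throughout. No called difference of a member reversed, and calls between regions were lost for H2afx and H3f3b under the alternatives named with those genes. All 3 ratios of paralogs kept their call: H2afv to H2afz gave 0.47 to 0.60, H2afy2 to H2afy -0.39 to -0.29 and H3f3a to H3f3b -0.26 to -0.21. H2afz in PFC at ZT1 ranged from 0.62 to 0.91 when single libraries were left out and from 0.64 to 0.89 under the other alternatives. With the correction for GC content and exon length, H2afj gave 0.22 in PFC at ZT1 and 0.27 for ZT13 against ZT1 in Ctrl mice, H2afx -0.21 in the second of these, and H2afv -0.04 in the first. The same correction gave PFC interaction values of 0.08 for H2afv and 0.30 for H2afx, against -0.12 and 0.02 in the main fit. With the replicate block, the count of members was 0 for PFC at ZT13 and 6 between regions, and no member's call changed. The numbers were not taken to pair the samples, since the labels do not tie them to mice. Deviations of NAc and PFC libraries with the same number correlated at 0.01 to 0.14, over 0.1 in 4 of 12, those with other numbers at -0.20 to 0.11, over 0.1 in 1 of 24, and those with the same number within a region at -0.21 to 0.19. Which NAc and PFC libraries share a mouse cannot be told from this. Counts over all genes moved more. In PFC at ZT1 they were 237, against 8 with the replicate block, 9 with its groups fitted alone, 16 without the libraries high in neighbouring markers, 42 with no filter and 139 with the GC and length correction. For time in PFC of Ctrl mice they were 1840, against 285 with the groups alone, 973 with no filter and 1089 with the correction. In PFC at ZT13 they were 3, against 1 to 50, for time in PFC of CJL mice 5, against 4 to 9, and for the PFC interaction 12, against 4 to 89. In NAc and for the difference of effects at ZT13 they were 0, against at most 9. Leaving out single libraries gave 6 to 407 in PFC at ZT1, 1 to 242 in PFC at ZT13, 313 to 2848 for time in PFC of Ctrl mice, 4 to 796 for the PFC interaction, at most 5 in NAc and at most 72 for the difference of effects. The cause of these changes was not tested.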
